A study of Mus musculus with 15 samples.

Results

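The genes described here are 48 genes of transforming growth factor beta (TGF-beta) and bone morphogenetic protein (BMP) signalling, taken by name from the 22063 rows of a table of RNA-seq counts. All 48 were in the table and 47 passed the filter on low counts, as did 14012 rows in all. They comprise 15 ligands, 9 receptors and coreceptors, 6 latency and matrix proteins, 9 antagonists and extracellular regulators, 5 SMADs and corepressors and 4 Id genes. The list groups genes by function and its rule has no threshold on a measured value, but it was drawn up with earlier results of these data known.

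RNA was sequenced from primary mouse embryonic fibroblasts of the C57Bl/6 strain at passage 2, connective tissue cells grown out of embryos. Cells were electroporated with a plasmid expressing Crxos, Oboxa1 (Obox6 in older naming), Oboxa4 (formerly Obox1) or Oboxa7, homeobox genes of the early embryo spelt CrxOS, OboxA1, OboxA4 and OboxA7 in the labels, or with an Empty Vector that served as control. In all groups the plasmid also carried a green fluorescent protein and fluorescent cells were sorted, and the inserts had a C-terminal V5 tag behind a constitutive CMV promoter. There were 3 libraries for each of the 5 conditions, and since nothing states that replicates came from separate cultures, p-values measure only the spread between libraries, which may be technical.

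TGF-beta ligands are secreted in a latent form that is held in the matrix by latent TGF-beta binding proteins until it is activated. Active ligands bind paired serine/threonine kinase receptors, which phosphorylate SMAD proteins that move to the nucleus. BMPs use related receptors and other SMADs, their activity is limited outside the cell by antagonists such as noggin, chordin and gremlin, and the Id genes are classical BMP targets. In fibroblasts the TGF-beta branch is known for driving collagen and contractile gene expression.

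Library totals were 28440415 to 42778823 counts. Each transfected gene was detected in its own libraries (2009 to 12033 counts) and had at most 34 counts in any other library and 0 in the control. The 15 libraries fell into a set of 5 (every Crxos library with Oboxa1 replicate 3 and control replicate 1) and a set of 10 (the others) along the first principal component of the 1000 most variable genes, which held 56.5% of their variance. No label names what separates the sets. Crxos was present only in the set of 5, and Oboxa4 and Oboxa7 only in the set of 10, so each comparison below is given over all 15 libraries and again within sets, where Crxos rests on control replicate 1 alone Oboxa4 and Oboxa7 on control replicates 2 and 3, and Oboxa1 on all 3. Summed CPM of 10 fibroblast markers was 33830 to 39740 after Crxos, 35670 to 37800 after Oboxa1, 36190 to 38280 after Oboxa4 and 29770 to 34580 after Oboxa7, against 26150 to 28200 in the control. The sum of 10 endothelial markers was at most 27.7 CPM after any of the 4 genes and at most 33.0 CPM in the control. That of 5 pericyte markers was 333.4 to 419 CPM after the 4 genes and 328.6 to 355.6 CPM in the control. Of these 5, 2, 1, 1 and 2 were called higher after Crxos, Oboxa1, Oboxa4 and Oboxa7, beside 8.38%, 4.25%, 8.06% and 3.33% of all genes. Markers of skeletal myoblasts summed to 18.7 to 20.9 CPM after Crxos, 10.8 to 19.7 CPM after Oboxa1, 9.39 to 10.7 CPM after Oboxa4 and 7.52 to 9.23 CPM after Oboxa7, against 5.55 to 6.56 CPM in the control, and desmin was the 1 of 5 that passed the filter. Macrophage markers summed to 5.82 to 8.59 CPM after Crxos, Oboxa1 and Oboxa4 and 9.28 to 9.92 CPM after Oboxa7, against 5.56 to 6.42 CPM in the control. Epithelial markers summed to 2.19 to 2.37 CPM after Crxos, 2.87 to 6.32 CPM after Oboxa1, 5.13 to 6.395 CPM after Oboxa4 and 10.5 to 14.1 CPM after Oboxa7, against 4.65 to 14.1 CPM in the control. Of 4 epithelial markers tested, 2 were called higher after Oboxa7, beside 3.33% of all genes. The part of these cell types in the results was not tested, and in bulk RNA a change in the share of a cell type cannot be told apart from a change per cell.

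Levels per kilobase ranged widely among the members. RPKM is the read count per kilobase of exon, scaled to the library's total. The highest mean over the 15 libraries was 617 RPKM for Fstl1, a secreted glycoprotein that binds ligands of the family, followed by 245 RPKM for Id3, an inhibitor of helix-loop-helix factors, and 212 RPKM for the BMP antagonist Grem1. Ltbp2, an extracellular fibrillin-binding protein, led the latency and matrix genes at 118 RPKM and Tgfb3 led the ligands at 90.1 RPKM. Ski, a SMAD corepressor, led its group at 69.4 RPKM and Tgfbr2, the type II TGF-beta receptor, led the receptors at 42.3 RPKM. Bmp7, which failed the filter, had 0.0225 RPKM and 0 to 10 counts per library.

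**Figure D1:**
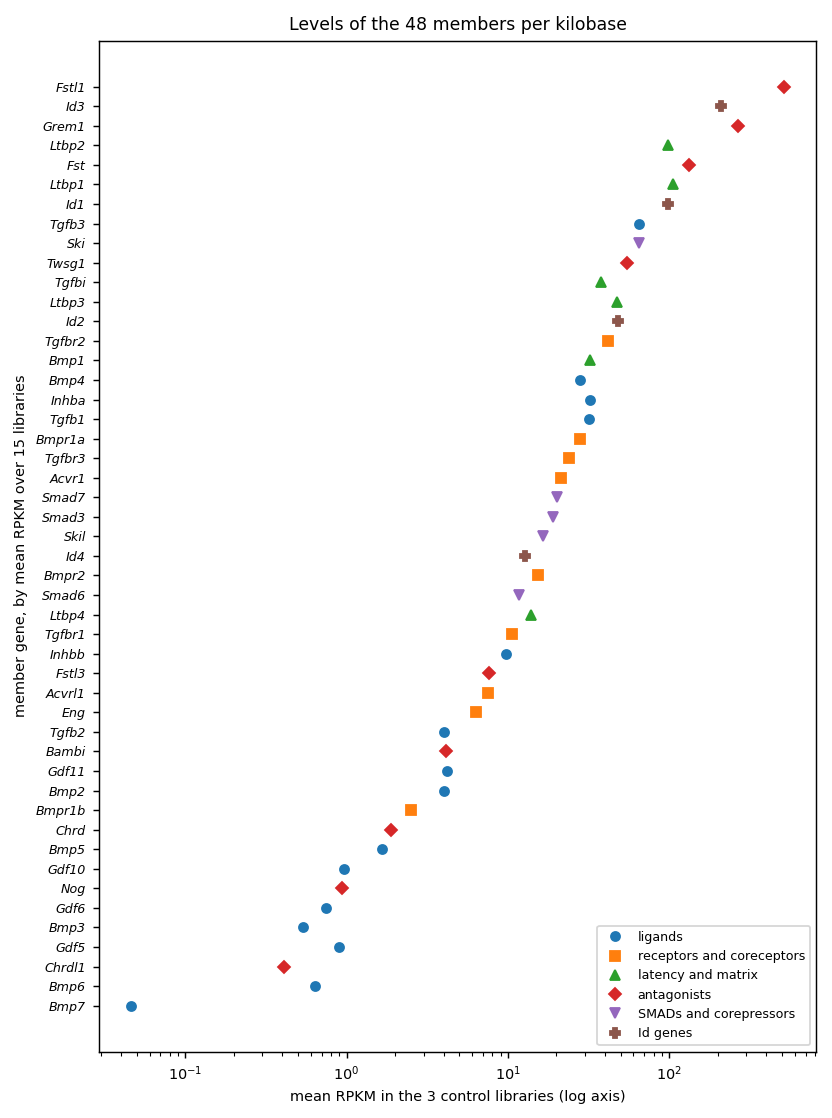
Mean RPKM of each of the 48 members in the 3 control libraries (horizontal log axis), ordered by the mean over all 15 libraries. Fstl1, Id3 and Grem1 are at the top and Bmp7 at the bottom. Antagonists lie at both ends, with Chrdl1, Nog and Chrd among the low members. BMP and GDF ligands other than Bmp4 lie towards the bottom.

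Genes with an adjusted p under 0.05 in edgeR's quasi-likelihood test (Benjamini-Hochberg over all genes tested) and a difference of more than 25% over the lower group are here termed called. Of the 47 members tested, 12 were called higher and 5 lower after Crxos over all 15 libraries, where 8.38% and 8.4% of all genes were called higher and lower. After Oboxa1, 4 were higher and 2 lower, against 4.25% and 3.28% of all genes. After Oboxa4, 7 were higher and 2 lower, against 8.06% and 5.83%. After Oboxa7, 2 were higher and 4 lower, against 3.33% and 2.34%. As shares of the members these were 25.5% higher and 10.6% lower after Crxos, 8.51% and 4.26% after Oboxa1 and 14.9% and 4.26% after Oboxa4. For Oboxa7 they were 4.26% and 8.51%. The median log2 fold change of the members was 0.03 for Crxos, 0.11 for Oboxa1, 0.09 for Oboxa4 and 0.07 for Oboxa7, beside medians of 0.00 over all genes. The 4 comparisons share the control libraries and are not independent.

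Within sets, 8 members were called higher and 4 lower after Crxos, where 6.39% and 5.7% of all genes were. There were 12 higher and 4 lower after Oboxa1, against 8.91% and 5.74%, and 16 higher and 3 lower after Oboxa4, against 12.7% and 7.71%. After Oboxa7 there were 9 higher and 5 lower, against 7.62% and 4.3%. In all, 24 of the 47 members were called in at least 1 comparison with the control over all 15 libraries and 23 in none.

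**Figure D2:**
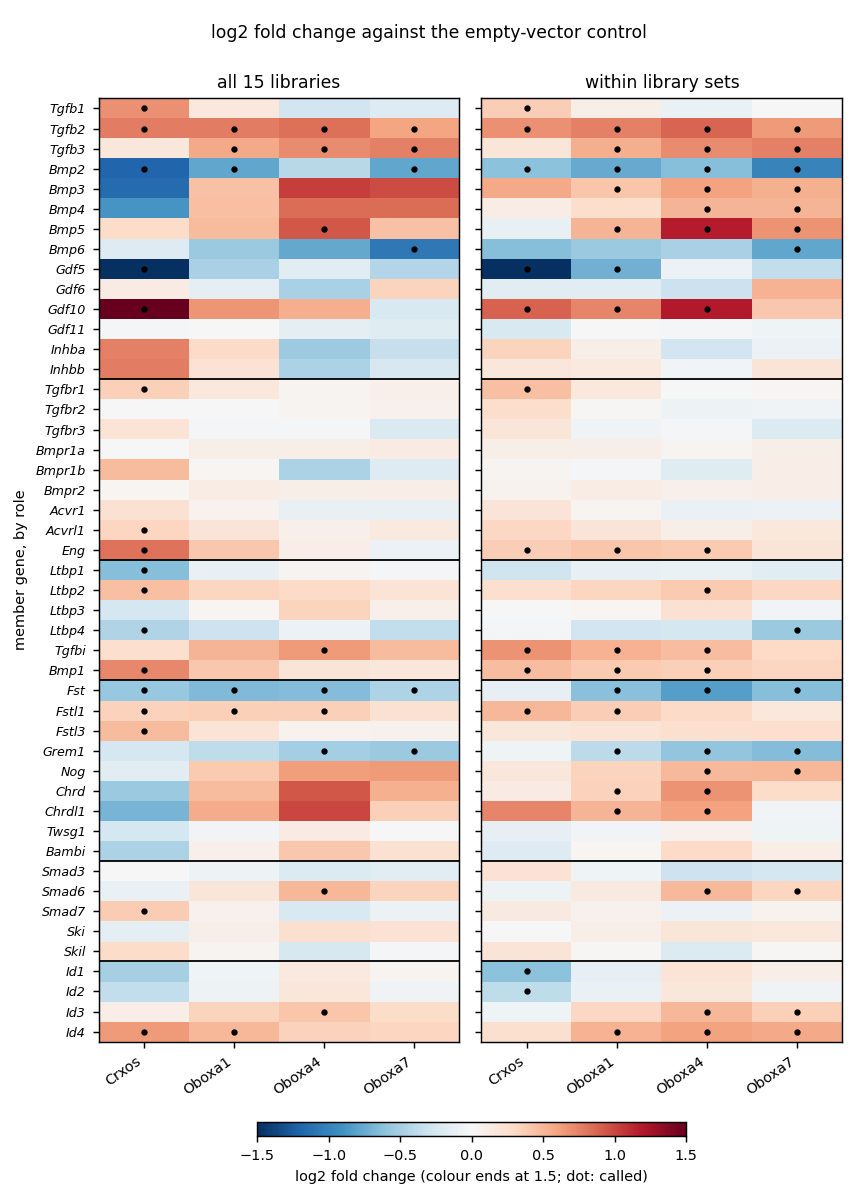
Log2 fold change against the control of the 47 tested members (rows, in 6 role groups divided by black lines) after each transfected gene (columns), over all 15 libraries on the left and within library sets on the right. Red is higher and blue lower than the control, the colour ends at 1.5 and a dot marks a called gene. Tgfb2 is red and dotted in each column of both panels.

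Among the ligands, Tgfb2 was higher after each of the 4 genes. Tgfb2 encodes a TGF-beta ligand that needs the coreceptor betaglycan for strong receptor binding. It had 49.2, 57.8 and 62.0 CPM after Crxos, 64.8, 54.5 and 48.8 CPM after Oboxa1, 57.3, 60.8 and 58.2 CPM after Oboxa4 and 52.3, 50.7 and 46.8 CPM after Oboxa7, against 35.03, 33.0 and 31.1 CPM in the control. Each of the 12 libraries lay above each of the 3 controls. Log2 fold changes were 0.77 ± 0.10 after Crxos, 0.76 ± 0.10 after Oboxa1, 0.83 ± 0.10 after Oboxa4 and 0.60 ± 0.10 after Oboxa7 (SE), with edgeR adjusted p between 0.000345 and 0.00473. They were 0.68, 0.76, 0.88 and 0.64 within sets, and no left-out library ended any of these calls. The set of 5 differed from the set of 10 in Tgfb2 by -0.08 ± 0.10 on the log2 scale (adjusted p = 0.581).

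The stretch before the start of Tgfb2 is shown because it was called higher in all 4 comparisons, beside those of Fstl1, called higher after 3 genes, and Grem1, called lower after 2. The sequences are the 250 bases upstream of the transcript start in the RefSeq promoter table (build GRCm38.p6), 5′ to 3′ on the gene's strand. Capitals mark matches to TAATCC, the core of paired-class homeodomains with lysine at the specificity position, to CAGAC, the SMAD box, or to GGCGCC, a GC-rich SMAD site, on either strand. The windows are chr1:186705990-186706239 on the minus strand for Tgfb2, chr16:37776805-37777054 on the plus strand for Fstl1 and chr2:113758649-113758898 on the minus strand for Grem1. That of Tgfb2 lies before a transcript start inside the annotated span of the gene (chromosome 1, 186622787 to 186709697), and the other 2 end at the first base before the gene.
Tgfb2: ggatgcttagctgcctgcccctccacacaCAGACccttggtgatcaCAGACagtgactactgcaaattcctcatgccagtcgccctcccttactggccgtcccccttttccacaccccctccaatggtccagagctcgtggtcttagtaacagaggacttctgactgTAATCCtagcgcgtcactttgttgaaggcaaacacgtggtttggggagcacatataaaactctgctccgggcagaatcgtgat
Fstl1: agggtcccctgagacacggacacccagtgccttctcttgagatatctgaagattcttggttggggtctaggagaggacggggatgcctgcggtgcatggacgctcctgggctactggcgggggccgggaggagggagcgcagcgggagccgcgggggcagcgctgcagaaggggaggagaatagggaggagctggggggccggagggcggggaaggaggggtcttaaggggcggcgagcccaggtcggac
Grem1: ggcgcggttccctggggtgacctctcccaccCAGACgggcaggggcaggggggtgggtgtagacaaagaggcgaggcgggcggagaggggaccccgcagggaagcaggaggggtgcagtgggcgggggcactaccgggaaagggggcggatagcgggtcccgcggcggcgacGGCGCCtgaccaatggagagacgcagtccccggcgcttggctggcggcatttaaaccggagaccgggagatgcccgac
The Tgfb2 window held 1 homeodomain core, which begins 83 bases before the start, and 2 SMAD boxes, and the Grem1 window held 1 SMAD box and 1 GC-rich site. The Fstl1 window held none of these letters. A window was available for 32 of the 48 members (38 windows, as some genes have several starts). TAATCC was in 7.9% of the members' windows and 6.3% of all 32851 windows, CAGAC in 47.4% and 42.2%, and GGCGCC in 28.9% and 9.6%. Base composition was not matched, and a match describes the letters and not a bound site.

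Tgfb3, whose product shares its receptors with the other TGF-beta ligands, was higher after the 3 Obox genes. It had 206, 257 and 282 CPM after Crxos, 364, 365 and 248 CPM after Oboxa1, 352, 374 and 356 CPM after Oboxa4 and 387, 378 and 349 CPM after Oboxa7, against 219, 227 and 214 CPM in the control. The Obox libraries all lay above the controls, and Oboxa1 replicate 3, of the set of 5, was the lowest of them. This gave log2 fold changes of 0.56 ± 0.13 after Oboxa1, 0.71 ± 0.13 after Oboxa4 and 0.75 ± 0.13 after Oboxa7 (SE, edgeR adjusted p = 0.0154, 0.0027 and 0.00579). After Crxos the value was 0.17 ± 0.13 (adjusted p = 0.356) and the libraries overlapped the controls. The Oboxa1 call was lost without Oboxa1 replicate 1, Oboxa1 replicate 2 or control replicate 3 (log2 fold change 0.48 to 0.55). Crxos lay below the mean of the Obox genes for Tgfb3 (log2 difference -0.50 ± 0.11, adjusted p = 0.00866), a comparison added after the data had been seen, but within the set of 5 the 3 Crxos libraries and the single Oboxa1 library differed by 0.00 ± 0.11.

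Tgfb1, the most studied TGF-beta ligand, was higher after Crxos at 105.5, 112 and 104.9 CPM, against 83.1, 61.3 and 55.6 CPM in the control (log2 fold change 0.69 ± 0.23, edgeR adjusted p = 0.0435). Oboxa1 replicate 3 had 115 CPM, while the other Obox libraries had 52.1 to 60.3 CPM. The Tgfb1 level followed the library set, with a log2 difference of 0.80 ± 0.09 between the set of 5 and the set of 10. The fold change was 0.37 within sets, where the call rests on control replicate 1, and 0.17 with a set term, where it was not called. It was also lost without any of 11 single libraries (0.57 to 0.70).

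Bmp2, a ligand for bone and cartilage formation, was lower after Crxos, Oboxa1 and Oboxa7. It had 7.49, 6.06 and 5.30 CPM after Crxos, 8.80, 9.70 and 6.57 CPM after Oboxa1, 11.2, 10.3 and 10.9 CPM after Oboxa4 and 8.52, 8.77 and 7.93 CPM after Oboxa7, against 9.67, 17.5 and 16.02 CPM in the control. Only the Crxos and Oboxa7 libraries all lay below the 3 controls, and control replicate 1, of the set of 5, was the lowest control. Log2 fold changes were -1.19 ± 0.20 after Crxos, -0.78 ± 0.20 after Oboxa1, -0.42 ± 0.19 after Oboxa4 and -0.78 ± 0.20 after Oboxa7 (SE, edgeR adjusted p = 0.00133, 0.0213, 0.134 and 0.0265). Within sets Bmp2 was called lower after all 4 genes (-0.62, -0.76, -0.64 and -1.0). The Oboxa1 call was lost without Oboxa1 replicate 1 or control replicates 2 or 3 (-0.82 to -0.62), and the Oboxa7 call without any Oboxa7 replicate or control replicates 2 or 3 (-0.81 to -0.61).

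Gdf10, a BMP3-like ligand, and Gdf5, a ligand of joint development, moved in opposite directions after Crxos. Gdf10 had 8.22, 7.38 and 7.43 CPM after Crxos, against 4.16, 1.41 and 1.73 CPM in the control (log2 fold change 1.65 ± 0.36, edgeR adjusted p = 0.00566). The fold was 0.89 within sets, and Gdf10 was also higher in the set of 5 than in the set of 10 by 1.28 ± 0.13. Not called after an Obox gene over all 15 libraries, Gdf10 was called higher within sets after Oboxa1 (0.73, edgeR adjusted p = 0.000726). The same held after Oboxa4 (1.19, adjusted p = 2.44e-05), and both calls were also made with a set term (0.70 and 1.13). Gdf5 had 1.01, 0.554 and 0.592 CPM after Crxos, against 2.28, 1.79 and 2.15 CPM in the control (log2 fold change -1.52 ± 0.39, adjusted p = 0.0135, and -1.65 within sets). Oboxa1 replicate 3 had 0.51 CPM of Gdf5 and the other Obox libraries 1.36 to 2.23 CPM. Gdf5 was among the lowest members, with 16 to 84 counts per library, and its call was lost without Crxos replicate 2 (-1.36, adjusted p = 0.0636) and with a set term.

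Bmp5 was higher after Oboxa4 and Bmp6 lower after Oboxa7, both of them BMP ligands of the same subgroup. Bmp5 had 7.66, 9.15 and 7.14 CPM after Oboxa4, against 5.49, 4.09 and 2.95 CPM in the control (log2 fold change 0.93 ± 0.20, edgeR adjusted p = 0.00662, and 1.18 within sets). No left-out library ended this call. Within sets Bmp5 was also called higher after Oboxa1 (0.51, edgeR adjusted p = 0.0232) and Oboxa7 (0.68, adjusted p = 0.0128). Both were also called with a set term (0.49 and 0.60), but not over all 15 libraries. Bmp6 had 0.681, 0.546 and 0.933 CPM after Oboxa7, against 2.08, 1.24 and 1.28 CPM in the control (-1.07 ± 0.29, adjusted p = 0.0362, and -0.78 within sets). Its 18 to 72 counts per library are few, and the call was lost without Oboxa4 replicate 3, Oboxa7 replicates 1 or 2 or control replicates 1 or 3 (-1.19 to -0.78).

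**Figure D3:**
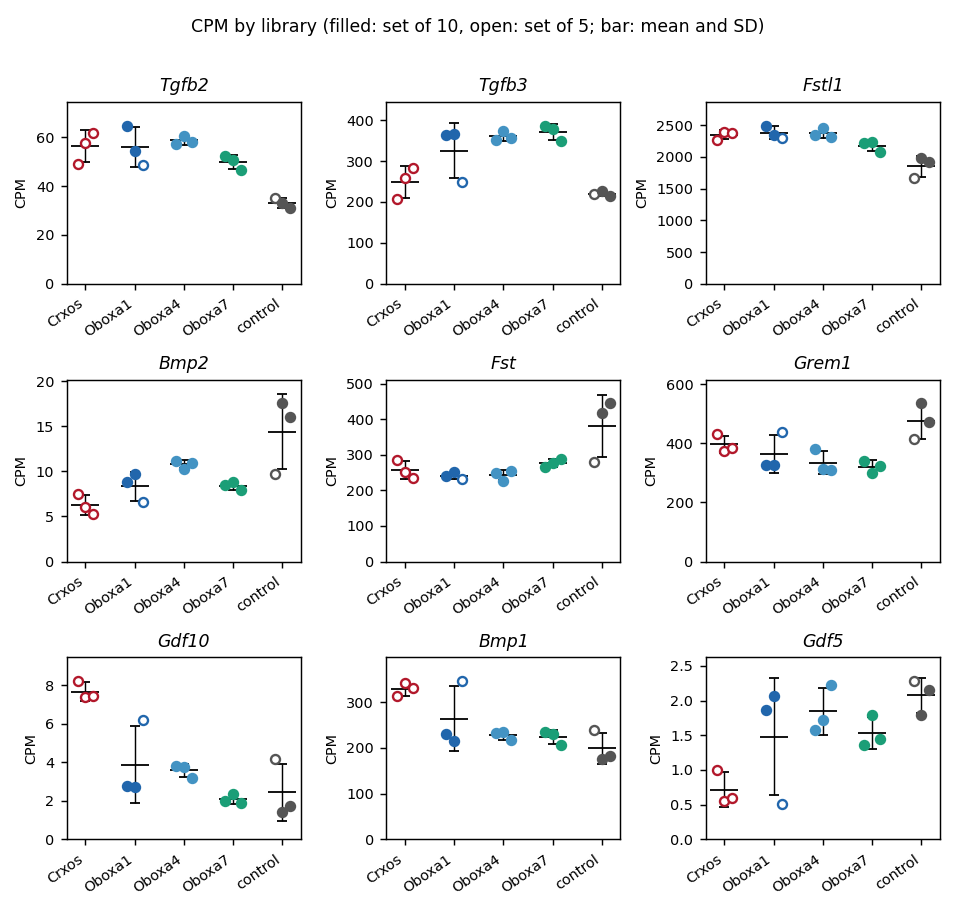
CPM of 9 members in each library after Crxos, Oboxa1, Oboxa4 and Oboxa7 and in the control, with the mean and SD of 3 libraries as black bars. Filled points belong to the set of 10 libraries and open points to the set of 5. Tgfb2 lies above the controls after each gene, while for Gdf10 the open points are the highest of each group that holds both kinds.

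Apart from Gdf10, the 6 members with the largest difference between the library sets were Bmp3 and Bmp4, BMP ligands, Inhba and Inhbb, the activin beta subunits, and Chrd and Chrdl1, BMP antagonists of the chordin family. Bmp4 had 33.8, 40.6 and 38.4 CPM after Crxos, 27.3 CPM in Oboxa1 replicate 3 and 34.8 CPM in control replicate 1, while the set of 10 had 86.3 to 137.5 CPM. Inhba had 307.8 to 516 CPM in the set of 5 and 127.5 to 202 CPM in the set of 10. The log2 difference of the set of 5 from the set of 10 was -2.18 ± 0.15 for Bmp3, -1.76 ± 0.15 for Bmp4, -1.31 ± 0.16 for Chrd, -1.95 ± 0.19 for Chrdl1, 1.20 ± 0.17 for Inhba and 1.20 ± 0.07 for Inhbb (SE). With the set as a term, 13 of the 47 members were called higher and 13 lower in the set of 5, where 8.93% and 9.33% of all genes were. None of the 6 genes was called against the control over all 15 libraries. Within sets, Bmp3 was higher after Oboxa1, Oboxa4 and Oboxa7 (0.42, 0.60 and 0.53) and Chrd and Chrdl1 after Oboxa1 (0.35 and 0.51) and Oboxa4 (0.68 and 0.60). Bmp4 was higher within sets after Oboxa4 and Oboxa7 (0.51 each), calls that were lost with a set term (adjusted p = 0.0512 and 0.0756), while Inhba and Inhbb were called after none of the 4 genes.

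**Figure D4:**
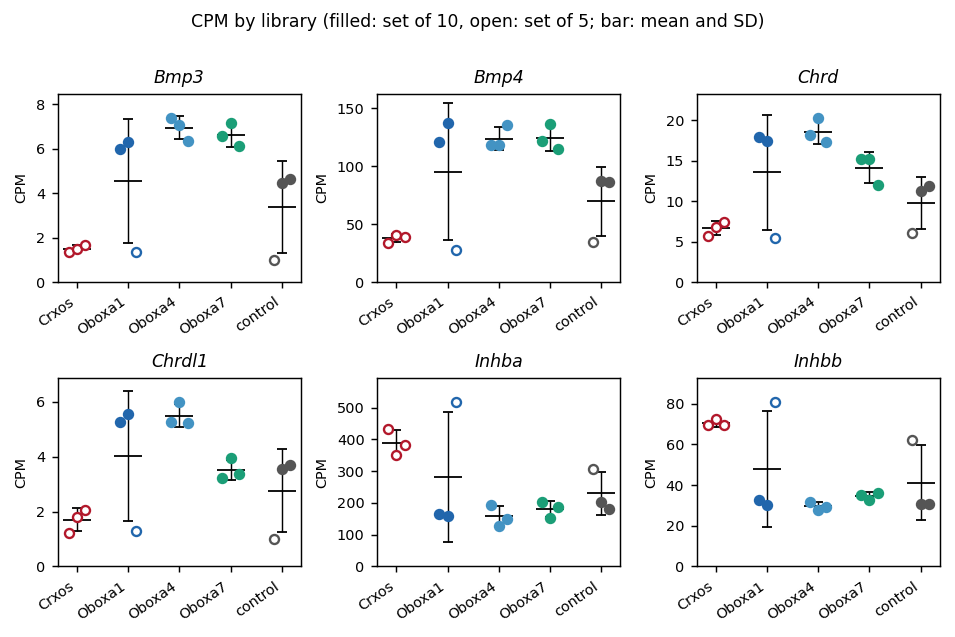
CPM of Bmp3, Bmp4, Chrd, Chrdl1, Inhba and Inhbb in each library after the 4 transfected genes and in the control, with mean and SD of 3 libraries as black bars. Open points are the set of 5 libraries and filled points the set of 10. In each panel the open points lie on 1 side of the filled ones, also among the Oboxa1 and control libraries.

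Among the receptors, 3 of 9 were called higher after Crxos over all 15 libraries, beside 8.38% of all genes. In that fit edgeR called none of the 9 in either direction for the 3 Obox genes. There 1, 0 and 1 had an unadjusted p under 0.05 (Oboxa1, Oboxa4 and Oboxa7 in turn). Within sets 1 receptor, Eng, was called for Oboxa1 and for Oboxa4, and 0 for Oboxa7. Tgfbr1, the type I TGF-beta receptor, had 85.7, 83.7 and 84.1 CPM after Crxos, against 61.9, 68.7 and 67.6 CPM in the control (log2 fold change 0.36 ± 0.09, edgeR adjusted p = 0.011, and 0.45 within sets). The within-set value rests on 1 control library, and with a set term the call was lost (0.26, adjusted p = 0.0698). Without control replicate 1 its fold was 0.31 on the log2 scale, below the fold threshold. Eng, endoglin, a coreceptor, had 42.1, 42.7 and 40.1 CPM after Crxos, against 32.1, 18.7 and 20.03 CPM in the control (0.82 ± 0.18, adjusted p = 0.00681). The set of 5 exceeded the set of 10 in Eng by 0.65 ± 0.07, and within sets the fold was 0.37 after Crxos, 0.42 after Oboxa1 and 0.39 after Oboxa4, each of them called. Acvrl1, a type I receptor for BMP9 and BMP10 known from endothelium, had 38.0, 37.9 and 31.8 CPM after Crxos, against 28.8, 27.0 and 30.2 CPM in the control (0.32 ± 0.10, adjusted p = 0.0291). That call was lost within sets (0.32, adjusted p = 0.0621) and without Crxos replicates 1 or 2 or control replicates 2 or 3 (0.28 to 0.36).

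The most abundant receptor, Tgfbr2, had 200.5, 195.8 and 200.6 CPM after Crxos, 205, 194 and 202 CPM after Oboxa1, 213, 199 and 204 CPM after Oboxa4 and 215, 208 and 203 CPM after Oboxa7, against 165, 209.9 and 222 CPM in the control. Over all 15 libraries its log2 fold changes lay between 0.00 and 0.07 (edgeR adjusted p 0.632 to 0.998). Within sets they were 0.27 after Crxos, against control replicate 1 alone, and 0.02, -0.07 and -0.05 after Oboxa1, Oboxa4 and Oboxa7. Bmpr1a and Bmpr2, BMP receptors of type I and type II, had log2 fold changes between 0.00 and 0.13, none called.

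Among the latency and matrix genes, Bmp1 was higher after Crxos. Bmp1 encodes a procollagen-processing protease that also cleaves chordin and a latent TGF-beta binding protein. It had 313, 342 and 330.4 CPM after Crxos, against 239, 177 and 181 CPM in the control (log2 fold change 0.72 ± 0.15, edgeR adjusted p = 0.00494, and 0.46 within sets). Oboxa1 replicate 3 had 346 CPM and the remaining Obox libraries 205.8 to 235 CPM, and the set of 5 lay above the set of 10 by 0.53 ± 0.06. Within sets Bmp1 was also called higher after Oboxa1 (0.39) and Oboxa4 (0.35).

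Tgfbi, a TGF-beta-induced matrix protein, was higher after Oboxa4 at 154, 170.4 and 149.8 CPM, against 75.8, 116 and 113 CPM in the control (log2 fold change 0.64 ± 0.16, edgeR adjusted p = 0.0116, and 0.46 within sets). Its 3 libraries lay above the controls after Oboxa1 and Oboxa7 too, at 0.50 and 0.47 over all 15 libraries (adjusted p = 0.0522 and 0.0733), and within sets it was called after Oboxa1 (0.52, adjusted p = 0.000162) and below the fold threshold after Oboxa7 (0.30). After Crxos the fold was 0.25 over all 15 libraries and 0.68 within sets, where it was called.

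The latent TGF-beta binding proteins moved in both directions after Crxos. Ltbp2 had 1019, 1007 and 1012 CPM after Crxos, against 849, 705 and 674 CPM in the control (log2 fold change 0.45 ± 0.10, edgeR adjusted p = 0.00871). Ltbp1 had 581, 535 and 554 CPM after Crxos, against 682, 934 and 986 CPM in the control (-0.64 ± 0.15, adjusted p = 0.0082), and Ltbp4 had a fold of -0.45 ± 0.13 (adjusted p = 0.0272). All 3 calls were lost within sets (0.25, -0.29 and -0.02), against control replicate 1 alone, and Ltbp4 was also lost without any of 5 single libraries (-0.49 to -0.32). With a set term Ltbp2 and Ltbp1 passed the p threshold but not the fold threshold (0.23 and -0.26, edgeR adjusted p = 0.0283 and 0.00974). Ltbp4 passed neither (-0.11, adjusted p = 0.364). After the Obox genes none of the 3 was called over all 15 libraries. Within sets Ltbp2 was called higher after Oboxa4 (0.39, adjusted p = 9.17e-05) and Ltbp4 lower after Oboxa7 (-0.55, adjusted p = 4.55e-06), and both were also called with a set term.

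Among the antagonists, Fst was lower after each of the 4 genes over all 15 libraries. Fst encodes follistatin, which binds and neutralises activin. It had 285, 252 and 234 CPM after Crxos, 239, 252 and 233 CPM after Oboxa1, 248, 227 and 255 CPM after Oboxa4 and 264, 276 and 287 CPM after Oboxa7, against 281, 417 and 445 CPM in the control. Control replicate 1 lay within the range of the transfected libraries and control replicates 2 and 3 above all of them. Its log2 fold changes were -0.57 ± 0.13, -0.66 ± 0.13, -0.65 ± 0.13 and -0.47 ± 0.13 after Crxos, Oboxa1, Oboxa4 and Oboxa7 (SE, edgeR adjusted p = 0.00805, 0.00703, 0.00412 and 0.0393). Within sets they were -0.13, -0.63, -0.83 and -0.64, and the Crxos value, against control replicate 1 alone, was not called (adjusted p = 0.381). The Oboxa7 call over all 15 libraries was lost without any of 7 single libraries (-0.49 to -0.34).

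Grem1, gremlin, an antagonist of BMP2 and BMP4, was lower after Oboxa4 and Oboxa7. It had 430.5, 374 and 384 CPM after Crxos, 326, 326 and 439 CPM after Oboxa1, 379.6, 314 and 309.6 CPM after Oboxa4 and 342, 299 and 323 CPM after Oboxa7, against 414, 536 and 474 CPM in the control. The Oboxa4 and Oboxa7 libraries all lay below the controls. On the log2 scale the change was -0.50 ± 0.12 after Oboxa4 and -0.56 ± 0.12 after Oboxa7 (SE, edgeR adjusted p = 0.012 and 0.0159), and -0.59 and -0.65 within sets. After Oboxa1 Grem1 had -0.38 (adjusted p = 0.0611) and was called within sets (-0.39), and after Crxos it had -0.26 (adjusted p = 0.148). The Oboxa7 call was lost without Oboxa7 replicate 2 or control replicates 2 or 3 (-0.56 to -0.47).

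Fstl1, the most abundant member, was higher after Crxos, Oboxa1 and Oboxa4. It had 2267, 2399 and 2375 CPM after Crxos, 2494, 2348 and 2295 CPM after Oboxa1, 2348, 2457 and 2309 CPM after Oboxa4 and 2215, 2233 and 2079 CPM after Oboxa7, against 1662, 1979 and 1914 CPM in the control. All 12 libraries lay above all 3 controls. Log2 fold changes were 0.34 ± 0.07 after Crxos, 0.36 ± 0.07 after Oboxa1 and 0.36 ± 0.07 after Oboxa4 (SE, edgeR adjusted p = 0.00322, 0.00507 and 0.00287). The Oboxa7 value of 0.23 ± 0.07 passed the p threshold (adjusted p = 0.044) but not the fold threshold. Control replicate 1 decided these calls, since without it the 3 values were 0.27, 0.29 and 0.29, below the fold threshold with adjusted p of 0.00448, 0.00583 and 0.0056, and within sets Oboxa4 had 0.28.

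Fstl3, which binds activin as follistatin does, had 19.0, 20.1 and 23.0 CPM after Crxos, against 18.4, 13.1 and 13.1 CPM in the control (log2 fold change 0.48 ± 0.16, edgeR adjusted p = 0.0392). That call was lost within sets (0.16) and without any of 9 single libraries (0.39 to 0.53). Noggin (Nog) was not called over all 15 libraries, and was higher within sets after Oboxa4 (0.49) and Oboxa7 (0.50), with 5.27 to 5.93 CPM and 5.36 to 6.04 CPM, against 3.97 and 3.98 CPM in control replicates 2 and 3, but not with a set term (adjusted p = 0.0633 and 0.0844).

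Of the SMADs and corepressors, Smad6 was called higher after Oboxa4 and Smad7 after Crxos, both of them inhibitory SMADs. Smad6, which acts mainly on BMP signalling, had 45.2, 50.3 and 53.3 CPM after Oboxa4, against 34.7, 34.8 and 36.4 CPM in the control (log2 fold change 0.49 ± 0.15, edgeR adjusted p = 0.0309, and 0.48 within sets). Its call was lost without Oboxa4 replicates 2 or 3 or any single control (0.44 to 0.52). Smad7 had a fold of 0.38 ± 0.12 after Crxos (adjusted p = 0.0361), lost within sets (0.13) and without Crxos replicates 1 or 2 or control replicates 2 or 3 (0.29 to 0.38). Smad3, a receptor-activated SMAD of the TGF-beta branch, had log2 fold changes of -0.01 to -0.21, and Ski of -0.13 to 0.24, none called. Ski had 313, 339 and 334 CPM after Crxos, 408, 426 and 318 CPM after Oboxa1, 431, 427 and 421 CPM after Oboxa4 and 418, 419 and 418 CPM after Oboxa7, against 327, 374 and 379 CPM in the control.

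The Id genes did not move together. Id4 had 34.7, 31.2 and 32.7 CPM after Crxos, 31.0, 30.4 and 27.7 CPM after Oboxa1, 26.0, 27.5 and 27.4 CPM after Oboxa4 and 24.7, 27.3 and 27.1 CPM after Oboxa7, against 27.8, 17.8 and 17.7 CPM in the control. Control replicates 2 and 3 lay below every other library, while control replicate 1 reached the level of the transfected ones. The log2 fold change was 0.64 ± 0.13 after Crxos and 0.49 ± 0.13 after Oboxa1 (SE, edgeR adjusted p = 0.00497 and 0.0318), and 0.35 and 0.32 after Oboxa4 and Oboxa7 (not called). Within sets Id4 was called after the 3 Obox genes (0.53, 0.60 and 0.57) and not after Crxos (0.24, adjusted p = 0.0558). The Oboxa1 call was lost without Oboxa1 replicates 1 or 2 or control replicates 2 or 3 (0.38 to 0.48).

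Id3 was higher after Oboxa4 at 235, 275 and 284 CPM, against 222, 189 and 186 CPM in the control (log2 fold change 0.41 ± 0.14, edgeR adjusted p = 0.0407, and 0.50 within sets), a call lost without any of 10 single libraries (0.36 to 0.42). Id1 had 76.4, 63.0 and 59.9 CPM after Crxos, against 102, 92.7 and 86.6 CPM in the control, and Id2 had 52.8, 46.2 and 44.3 CPM, against 62.2, 59.1 and 63.7 CPM in the control. Both lay below all controls, and neither passed the test over all 15 libraries (-0.50 and -0.37, adjusted p = 0.0895 and 0.0578). Within sets both were called lower (-0.61 and -0.38), but that comparison has 1 control library, and with a set term, which uses all controls, neither was called (-0.28 and -0.18, adjusted p = 0.361 and 0.354). Oboxa1 replicate 3 had 54.6 CPM of Id1 and 42.7 CPM of Id2, below each of the other Obox libraries.

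**Figure D5:**
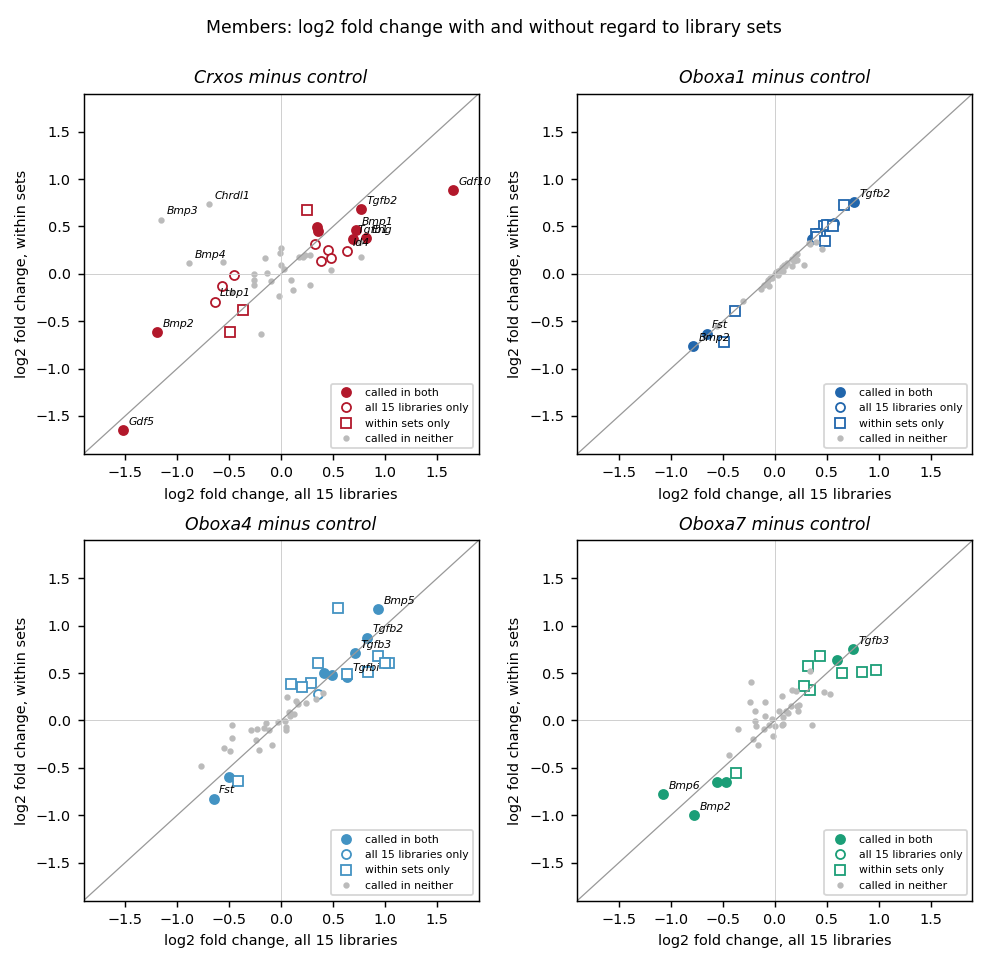
Log2 fold change of the 47 members against the control over all 15 libraries (horizontal) and within library sets (vertical), 1 panel for each transfected gene, with the line of equality. Filled circles were called in both fits, open circles over all 15 libraries only and open squares within sets only. Members after Crxos scatter widely about the line, whereas after Oboxa1 they lie close to it. Oboxa1 and the control divide between the library sets in the same proportion, so closeness to the line after Oboxa1 follows from the design.

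The Obox genes were compared with each other. Over all 15 libraries edgeR called 0 members between Oboxa4 and Oboxa1, 0 between Oboxa7 and Oboxa1 and 0 between Oboxa4 and Oboxa7, where 0.0285%, 0.121% and 0.186% of all genes were called. At an unadjusted p under 0.05 there were 6, 2 and 5 members, and DESeq2 called 0 in each. Within sets 0, 2 and 6 members were called, beside 0.0642%, 1.75% and 3.53% of all genes. Between Oboxa4 and Oboxa7, Bmp2 (0.36), Bmp5 (0.50), Gdf10 (0.78), Chrd (0.40) and Chrdl1 (0.65) were higher after Oboxa4 and Gdf6 lower (-0.84), as log2 differences. Gdf6, a BMP ligand of joints and skeleton, had 2.00, 1.62 and 2.02 CPM after Oboxa4, against 2.98, 3.01 and 3.99 CPM after Oboxa7. Gdf6 was also higher (0.78) and Chrdl1 lower (-0.62) after Oboxa7 than after Oboxa1 within sets.

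Crxos was also set against the mean of the 3 Obox genes, where 24 members and 17.5% of all genes were called in either direction. Here the condition and the library set cannot be told apart for Oboxa4 and Oboxa7. The largest differences were for genes that also differed between the sets, Bmp3 (-1.97), Bmp4 (-1.59), Chrdl1 (-1.33) and Gdf10 (1.32) on the log2 scale. Within the set of 5, the Crxos libraries and Oboxa1 replicate 3 differed by between -0.41 (Inhba) and 0.50 (Gdf5) over the 47 members, with 1 library on the Oboxa1 side.

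Of 53 further pathway genes, most were not called. Over all 15 libraries, of 8 tested ligands, 3 were called higher and 3 lower after Crxos and none by edgeR after an Obox gene. In that fit 2, 1 and 0 had an unadjusted p under 0.05 after Oboxa1, Oboxa4 and Oboxa7. Within sets 1 ligand was called higher and 2 lower after Oboxa1, 1 and 3 after Oboxa4 and 0 and 1 after Oboxa7. Of 8 tested antagonists, 1 was higher and 2 lower after Crxos over all 15 libraries. Sostdc1, a secreted regulator of BMP and Wnt signals, was the single call there after Oboxa1 (1.24) and Oboxa4 (1.67). Within sets 2 antagonists were called higher and 1 lower after Oboxa1, and 1 and 1 after each of Oboxa4 and Oboxa7. Of 6 tested receptors and coreceptors, 2 were higher after Crxos, 2 after Oboxa1, 2 after Oboxa4 and 1 after Oboxa7 over all 15 libraries, with none lower. Within sets 2 were higher and 0 lower after Oboxa1, 2 and 1 after Oboxa4 and 1 and 1 after Oboxa7. Acvr2a, a type II activin receptor, was called in all 4 comparisons. It had 54.1, 63.3 and 66.7 CPM after Crxos, 54.9, 52.9 and 58.3 CPM after Oboxa1, 55.3, 53.4 and 46.1 CPM after Oboxa4 and 50.3, 45.9 and 45.3 CPM after Oboxa7, against 35.5, 38.3 and 33.9 CPM in the control. Its log2 fold changes were 0.77, 0.62, 0.52 and 0.39 (SE 0.09 each, edgeR adjusted p = 0.000229 to 0.016), and 0.79, 0.62, 0.51 and 0.38 within sets. Of 15 SMADs and intracellular regulators, Smad9, a SMAD of the BMP branch, was lower after Crxos (-0.62 ± 0.14, adjusted p = 0.00632), and Tob1 was higher after Oboxa4 and Oboxa7 (0.46 and 0.47). Smurf1, a ubiquitin ligase for SMADs and receptors, was lower after Oboxa4 (-0.39 ± 0.08, adjusted p = 0.00574). Within sets 1 of the 15 was called higher and 2 lower after Oboxa4, 1 higher after Oboxa7 and 0 after Oboxa1. Crxos was present only in the set of 5, where control replicate 1 was the only control. There the tested ligands, antagonists and receptors had median log2 fold changes of 0.19, 0.07 and 0.25 after Crxos. Over all 15 libraries these medians were 0.27, 0.03 and 0.44.

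Of 12 genes known to be induced by TGF-beta in fibroblasts, 6 were called higher after Crxos, 5 after Oboxa1, 5 after Oboxa4 and 6 after Oboxa7. Over all 15 libraries these were 50%, 41.7%, 41.7% and 50% of the list, beside 8.38%, 4.25%, 8.06% and 3.33% of all genes. Of the 10 fibroblast markers, 70%, 50%, 40% and 30% were called higher in the same fit, with 1 lower after Crxos and 1 after Oboxa7. Col1a1 and Col1a2 are on both lists. Whether the TGF-beta list moved apart from fibroblast genes in general was not tested. The single lower call in the TGF-beta list over all 15 libraries was Ctgf after Oboxa4 (-0.63 ± 0.14). Within sets 6 of these 12 genes were called higher and 1 lower after Oboxa1, 6 and 1 after Oboxa4 and 8 and 0 after Oboxa7. Of all genes, 8.91%, 12.7% and 7.62% were called higher within sets after these 3. The 12 genes had median log2 fold changes of 0.37, 0.28, 0.28 and 0.38 over all 15 libraries, beside medians of 0.00 over all genes. Within sets their medians were 0.26 after Crxos (1 control library), 0.29 after Oboxa1, 0.29 after Oboxa4 and 0.35 after Oboxa7. Acta2, smooth muscle actin, and the collagen genes Col1a1 and Col1a2 were higher after each of the 4 genes. Acta2 had 3215, 3840 and 3941 CPM after Crxos, 4471, 4344 and 3447 CPM after Oboxa1, 3546, 4345 and 3989 CPM after Oboxa4 and 4410, 4876 and 4078 CPM after Oboxa7, against 2779, 2470 and 2439 CPM in the control. All 12 libraries lay above the controls, with log2 fold changes of 0.52, 0.67, 0.63 and 0.80 (edgeR adjusted p 0.00216 to 0.00664).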

How the data were processed

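Per the labels and the paper's methods, sorted cells were sequenced as paired-end reads, which the authors aligned to GRCm38/mm10 with STAR and assigned to NCBI protein-coding genes with featureCounts. Versions, strand and multi-mapping settings: not given in the sources used here. What was deposited is raw counts per gene, not normalized or filtered; 2 of 22063 rows repeat a name.

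Counts were scaled by TMM, genes filtered with filterByExpr, and 5 condition means fitted over all 15 libraries by the quasi-likelihood test of edgeR 4.0.16 in R 4.3.3 (with limma 3.58.1), without a block. Genes were called at a Benjamini-Hochberg adjusted p under 0.05 over all 14012 genes and a difference above 25%. Fitted log2 fold changes use a prior count of 0.125. The within-set fit has a mean for each condition in each library set. CPM and RPKM were computed from the counts, with the deposited gene lengths. The paper states matching by date, and no date of a library was used. Alternatives were other scalings, filters and group choices, DESeq2 1.42.0, a replicate block, set terms and leaving out each library.

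The members and lists were chosen with earlier results of these data known. Members called in at least 2 comparisons, or in 1 without overlap of libraries, and the most abundant of each role are given by library. Of other lists, up to 4 called genes with the smallest p are named. Promoter windows were searched over the 250 bases before the start, and not after it.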

Additional observations from a re-analysis of the deposited data

How the results depend on the processing

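Of 38 calls of a member against the control, 17 were kept in all 9 alternatives other than left-out libraries, 19 were kept without every single library, 13 were kept throughout and 0 changed direction. A model of the 2 groups alone ended 13 of these calls, a term for the 2 sets 11 and the within-set fit 9. The within-set fit called 12 higher and 4 lower after Oboxa1 (4 and 2 over all 15 libraries), 16 higher after Oboxa4 (7) and 9 higher after Oboxa7 (2), and 2 members between Oboxa7 and Oboxa1 and 6 between Oboxa4 and Oboxa7 (0 each). With a term for the 2 sets there was 1 lower after Crxos (5), with 12 higher for Oboxa1, 14 for Oboxa4 and 8 for Oboxa7. That term gave 3 called between Oboxa4 and Oboxa7 and 0 between Oboxa7 and Oboxa1. A model limited to the 2 groups compared called 0 members higher and 0 lower after Oboxa1 (49 and 18 of all genes, against 595 and 460), 1 lower after Oboxa7 (4) and 5 between Oboxa4 and Oboxa7. DESeq2 called 7 higher after Oboxa1. Between Oboxa4 and Oboxa7 the within-set fit compares the same libraries as the main fit and differs in its estimate of the spread. The cause of the other differences was not tested.

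Leaving out 1 library gave 3 to 11 members lower after Crxos (3 when Crxos replicate 2 was left out, 11 for Oboxa1 replicate 3 and 9 for control replicate 1), 2 to 10 higher and 1 to 4 lower after Oboxa1, 5 to 14 higher and 2 to 5 lower after Oboxa4, and 2 to 6 higher and 0 to 5 lower after Oboxa7. Without Oboxa1 replicate 3 the number higher was 10 for Oboxa1, 14 for Oboxa4 and 6 for Oboxa7. The Oboxa1 counts were lowest without Oboxa1 replicate 1 or control replicate 3 (2 higher and 1 lower each) and those lower after Oboxa7 without Oboxa7 replicate 2 or control replicate 3 (0 each). Whether shared replicate numbers paired the libraries could not be decided from deviations from group means, since the library sets split the Oboxa1 and control groups. Correlations of same-numbered deviations were -0.48 to 0.44 and 3 of 30 were over 0.1. Those of different-numbered deviations were -0.56 to 0.63 and 7 of 60 were over 0.1. With a replicate block, 10 members were called higher and 5 lower after Crxos. The Obox counts were 4 and 2 (Oboxa1), 7 and 2 (Oboxa4), and 2 and 3 (Oboxa7). The block ended the calls of Tgfb1 and Fstl3 after Crxos and of Fst after Oboxa7. Other scalings and filters moved no count of members by over 1.5 times. Depth limits the lowest ligands, Gdf5, Bmp6 and Bmp7, where counts per library were below 100.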
